A study of Mus musculus with 6 samples.

Results

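The transcripts described here are those of the mitochondrial genome, the small circular DNA that mitochondria carry. They were taken as every row whose symbol begins with mt-, which gave 37 of the 30803 rows: 13 mRNAs, 2 rRNAs and 22 tRNAs. The RNA came from bone marrow of wild-type mice aged 5 months and kept specific-pathogen-free, from cells that the labels call HSCs (hematopoietic stem cells, which sustain blood formation), divided by MHC class II into an MHCII-hi and an MHCII-lo fraction. Each fraction had 3 poly(A)-selected RNA-seq libraries (n = 3 per group throughout), and no library carried a treatment or a genetic change. The sources used here do not give the gate behind the HSC label, and do not say whether a library came from 1 animal or from a pool. Nothing in them ties each library to its own animal, so every p-value compares the groups only across these libraries, whose spread may be technical. The values were taken as FPKM, sequenced fragments relative to transcript length and library size. That unit was inferred from the values, and the read depth is unknown.

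The mitochondrial genome encodes subunits of respiratory complexes I, III, IV and V, and the rRNAs and tRNAs of the ribosome that translates them; all other subunits are nuclear. Each of its strands is transcribed from end to end into a long precursor, and enzymes excise the tRNAs that lie between the other genes, which releases the mRNAs and rRNAs. The mRNAs are given short poly(A) tails, except the mRNA of mt-Nd6, while the tRNAs carry none, so a poly(A)-selected library captures these classes unequally. Resting HSCs are known for low mitochondrial activity and a reliance on glycolysis.

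The identity of the labelled cells was checked on marker genes. Of 15 HSC markers, 8 had a mean below 1 FPKM over the 6 libraries (Slamf1, Procr, Mecom, Hoxb5, Fgd5, Tek, Esam and Ctnnal1), and the whole list summed to between 35.9 and 36.4 FPKM in MHCII-lo and 53.3 to 54.6 in MHCII-hi. The 18 neutrophil and monocyte markers summed to between 18117 and 24129 FPKM over the 6 libraries. The label was therefore kept as a name only. In such bulk samples, fewer cells of a type and less RNA per cell cannot be told apart.

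Several mitochondrial genes have near-identical copies in nuclear DNA, and the sequences bear on every level given below. In GENCODE M21 (GRCm38), 7 unprocessed pseudogenes between positions 24611535 and 24616197 of chromosome 1, minus strand, match mt-Co1, mt-Co2, mt-Atp6, mt-Co3, mt-Nd3, mt-Nd4l and mt-Nd4 in the order of the mitochondrial genome. Gm28661 (mt-Co2), Gm10925 (mt-Atp6), Gm28437 (mt-Co3), Gm10222 (mt-Nd4l) and Gm28439 (the first 876 bases of mt-Nd4) had 0 mismatches. Gm28438 differed from mt-Nd3 at 1 of 345 bases and Gm29216 from the last 492 bases of mt-Co1 at 6. The first 30 aligned bases of both pairs are shown because they hold every difference, with the mismatched bases in capitals.
mt-Co1, chrM:6381-6410: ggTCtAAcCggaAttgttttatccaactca
Gm29216, chr1:24616168-24616197: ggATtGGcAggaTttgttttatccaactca
mt-Nd3, chrM:9459-9488: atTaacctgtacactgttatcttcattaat
Gm28438, chr1:24613090-24613119: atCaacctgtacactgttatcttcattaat

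Counted from 1 at the first base of each mitochondrial gene, the substitutions are T1056A, C1057T, A1059G, A1060G, C1062A and A1066T in Gm29216 and T3C in Gm28438. Beyond them the copies are identical for 479 and 342 bases, so a read from these stretches matches both places. The files list the copies as abundant genes. In the 3 MHCII-lo libraries, Gm28437 stood at 2485, 2443 and 2476 FPKM, beside 2499, 2472 and 2491 for mt-Co3. In MHCII-hi it stood at 2820.1, 2858 and 2853 FPKM, beside 2851, 2889 and 2884. The 5 copies that cover over 95% of their gene were listed at 0.985 to 1.09 times the FPKM of that gene in every library, and their log2 changes differed from it by at most 0.03. The sources used here do not give how reads that match several places were counted. Both the level and the change of these mRNAs are therefore uncertain. The copies that cover only part of a gene changed by other amounts than the gene, with log2 changes of 0.73 for Gm28439 against 0.56 for mt-Nd4, and 0.40 for Gm29216 against 0.55 for mt-Co1. Older, more diverged copies of mt-Co1 and mt-Co2 on another stretch, Gm13340 and Gm13341, which share 45.2% and 48.0% of their 31-base words with the mitochondrial gene, were listed at only 13.2 to 17.3 FPKM.

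**Figure D1:**
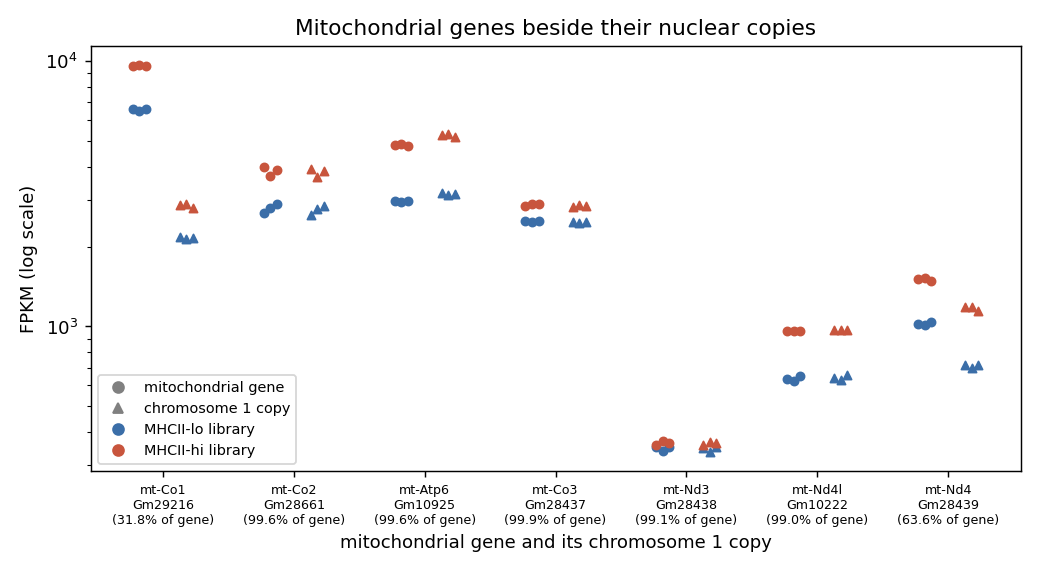
FPKM (log axis) of 7 mitochondrial mRNAs (circles) and their chromosome 1 copies (triangles) in each MHCII-lo (blue) and MHCII-hi (red) library, with the share of the gene that each copy covers. The 5 copies that cover over 95% of their gene sit level with it, at 0.985 to 1.09 times its value, while the copies of mt-Co1 and mt-Nd4 that cover 31.8% and 63.6% are listed lower.

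The mitochondrial transcripts took a larger share of the MHCII-hi libraries. All 37 rows together made up 8.85%, 8.81% and 8.96% of the library's FPKM in MHCII-lo and 12.54%, 12.50% and 12.51% in MHCII-hi. The groups did not overlap, with a difference of 3.65 percentage points (two-sided exact permutation test p = 0.1, the smallest that 3 against 3 libraries allow). The mRNAs supplied nearly all of it, at 8.42% ± 0.0656 (SD) of FPKM in MHCII-lo against 12.02% ± 0.0240. The rRNAs supplied 0.111% and 0.148%, and the tRNAs 0.344% and 0.350%. The deposited totals were themselves higher in MHCII-hi, at 333432 ± 92.5 FPKM against 306496 ± 515, and immunoglobulin segments took 8.30% of it against 0.415%. With those segments left out of the total, the mitochondrial share was 8.91% and 13.65%. With the 7 copies counted as mitochondrial, it was 12.86% and 17.69%.

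Each of the 13 mRNAs was higher in all 3 MHCII-hi libraries than in any MHCII-lo library, and all 13 rose in limma (adjusted p under 0.05 over 12295 tested genes), but 12 rose and mt-Nd3 fell when every library was rescaled to an equal total, and 11 rose and mt-Co3 fell with quantile normalization. Over all tested genes 67.8% were called, 27.2% higher and 40.5% lower, and 29.6% had the MHCII-hi libraries above the MHCII-lo libraries without overlap. The median log2 change of the 13 was 0.62, against -0.08 over all tested genes. It was 0.50 against -0.21 after rescaling to an equal total, which shifted the median of all genes by -0.12. Quantile normalization, which forces the highest values of every library to be equal, left a median of 0.22 and a range of -0.18 to 0.55, with mt-Co1 at exactly 0 because it ranked first in all 6 libraries. Among the 63 nuclear genes outside the immunoglobulin segments and the copies that were as abundant as the lowest mRNA, 20 were called higher and 41 lower, with a median of -0.31. Among the 7689 such genes with a transcript between 204 and 1824 bases, the range of the 13 mRNAs, 22.8% were called higher and the median was -0.14.

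The libraries of a group lay close together, with a coefficient of variation of 0.287% to 4.11% over the 13 mRNAs in MHCII-lo and 0.121% to 3.90% in MHCII-hi. The change was not even along the genome. Of the 13 mRNAs, 10 had ratios of mean FPKM between 1.38 and 1.67, mt-Atp8 stood above these, and the neighbours mt-Co3 and mt-Nd3 stood below. Over the 13 mRNAs, which share their libraries and their precursors, the log2 change had a Pearson correlation of -0.09 with log10 length and 0.32 with log2 level in MHCII-lo, given as a description.

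**Figure D2:**
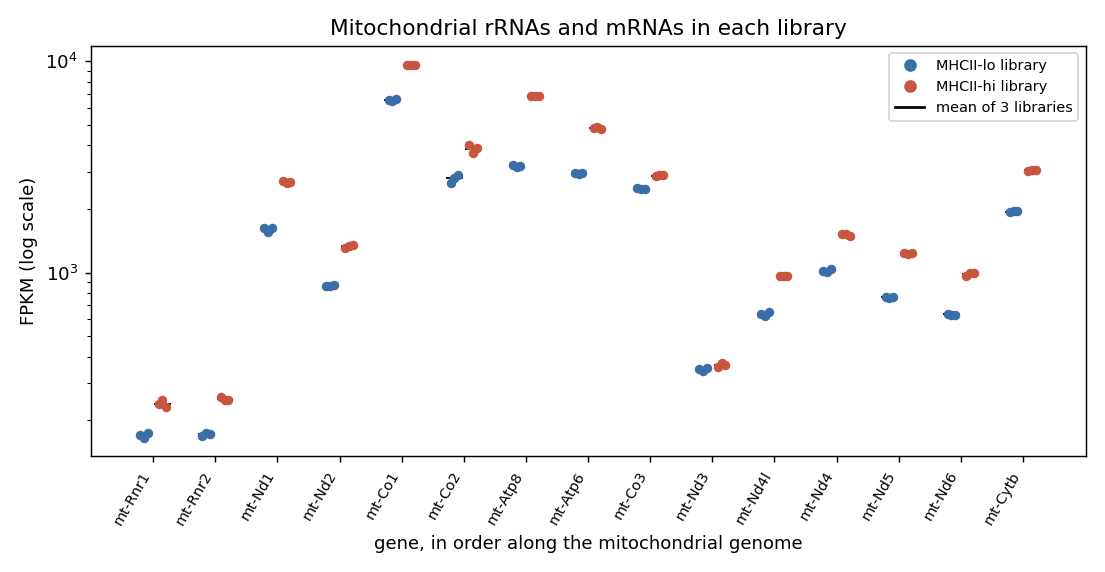
FPKM (log axis) of the 2 rRNAs and 13 mRNAs in each library, in genome order, with MHCII-lo libraries in blue, MHCII-hi in red and a line at the mean of 3. In the deposited values every gene sits higher in MHCII-hi, from mt-Nd3 at 364.9 against 348 FPKM to mt-Atp8 at 6825 against 3190 FPKM as means; after rescaling to an equal total mt-Nd3 fell.

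Complex I, the entry point of electrons from NADH, takes 7 of its subunits from mitochondrial DNA. The mRNA of mt-Nd1 (chrM:2751-3707), a core membrane subunit, stood at 1616, 1555 and 1629 FPKM in MHCII-lo and at 2707, 2659 and 2674 in MHCII-hi, 1.67-fold higher. Its log2 change of 0.74 ± 0.02 (SE) was the largest of the 7 as deposited (limma adjusted p = 2.45e-07), and 0.14 with quantile normalization. The mRNAs of mt-Nd2 and mt-Nd5, proton-pumping subunits, rose 1.53-fold and 1.62-fold. mt-Nd2 (chrM:3914-4951) had 867, 861 and 870 FPKM in MHCII-lo against 1309.9, 1329.5 and 1346 in MHCII-hi. mt-Nd5 (chrM:11742-13565), the longest mRNA at 1824 bases, had 763, 761 and 766 FPKM against 1242, 1224 and 1233.

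The mRNA of mt-Nd4 (chrM:10167-11544) is joined to that of mt-Nd4l (chrM:9877-10173) in a bicistronic transcript. The last bases of mt-Nd4l are shown with the 7 that both reading frames share in capitals.
mt-Nd4l, chrM:10144-10173: gtccaaaatctcaacctactacaATGCTAA

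These capitals hold the start codon of mt-Nd4 and the stop codon of mt-Nd4l. mt-Nd4l stood at 637, 623 and 649 FPKM in MHCII-lo and at 960.5, 959 and 961 in MHCII-hi. mt-Nd4 stood at 1019.98, 1009 and 1036 FPKM against 1515, 1524 and 1487. Both were higher without overlap, and they kept nearly the same ratio, 0.623 ± 0.00480 in MHCII-lo and 0.636 ± 0.00890 in MHCII-hi (two-sided exact permutation test p = 0.1, the smallest possible). Gm28439, the copy of the first 876 bases of mt-Nd4, was 1.66-fold higher, against 1.48-fold for mt-Nd4 as a whole.

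mt-Nd6 (chrM:13552-14070), the only mRNA read from the minus strand and the only one known to lack a poly(A) tail, also rose. It had 635, 632 and 632 FPKM in MHCII-lo and 959, 994 and 993 in MHCII-hi, 1.55-fold higher (limma log2 change 0.63 ± 0.02 SE, adjusted p = 2.67e-07). Its last 14 bases are antisense to the end of mt-Nd5. The library kit keeps strand, per the labels' protocols, but the sources used here do not say that counting used it, so reads of mt-Nd6 and of its antisense cannot be told apart.

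The mRNA of mt-Nd3 (chrM:9459-9806) was nearly level. It stood at 351, 341 and 353 FPKM in MHCII-lo and at 359, 371 and 365 in MHCII-hi, so the groups were barely separated. The log2 change was 0.07 ± 0.02 (SE, limma adjusted p = 0.0192). The call was lost without MHCII-lo replicate 2 (adjusted p = 0.0576) and without MHCII-hi replicate 2 (0.0564), and over 18 alternative settings the adjusted p lay between 0.000230 and 0.101. After rescaling to an equal total the log2 change was -0.05, with the median of all tested genes at -0.21.

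In complex III, cytochrome b (mt-Cytb, chrM:14145-15288) is the only mitochondrial subunit and carries electrons from ubiquinol. Its mRNA stood at 1932, 1944 and 1956 FPKM in MHCII-lo and at 3036, 3048 and 3049 in MHCII-hi. These libraries were 1.57-fold apart, with a log2 change of 0.65 ± 0.01 (SE, limma adjusted p = 2.23e-08), and 0.22 with quantile normalization.

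Complex IV, cytochrome c oxidase, has its catalytic core encoded by mt-Co1, mt-Co2 and mt-Co3. mt-Co1 (chrM:5328-6872) was the most abundant row of all 30803 in each group. It had 6585, 6503 and 6621 FPKM in MHCII-lo and 9587, 9635 and 9581 in MHCII-hi, 1.46-fold higher (limma log2 change 0.55 ± 0.01 SE, adjusted p = 3.50e-08). mt-Co2 (chrM:7013-7696) varied most between libraries, with 2664, 2804 and 2891 FPKM against 3992, 3695 and 3884. It still rose 1.38-fold without overlap (limma log2 change 0.47 ± 0.04 SE, adjusted p = 4.37e-05, and a log2 change of 0.0509 with quantile normalization).

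mt-Co3 (chrM:8607-9390) rose least of the 3, from 2499, 2472 and 2491 FPKM to 2851, 2889 and 2884, which is 1.16-fold. Its log2 change was 0.21 ± 0.01 (SE, limma adjusted p = 2.51e-06), and -0.18 with quantile normalization. It begins at the last base of mt-Atp6, yet mt-Atp6 rose 1.63-fold. The ratio of mt-Co3 to mt-Atp6 was 0.842, 0.843 and 0.841 in MHCII-lo and 0.589, 0.594 and 0.604 in MHCII-hi (two-sided exact permutation test p = 0.1). Within a group this ratio hardly varied, and the groups were far apart.

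Complex V, ATP synthase, takes the membrane subunits mt-Atp6 and mt-Atp8 from mitochondrial DNA, and these are translated from a shared mRNA with overlapping reading frames. The whole of mt-Atp8 is shown, since it changed most of the 13 mRNAs as deposited, with the 43 bases that also begin mt-Atp6 in capitals.
mt-Atp8, chrM:7766-7969: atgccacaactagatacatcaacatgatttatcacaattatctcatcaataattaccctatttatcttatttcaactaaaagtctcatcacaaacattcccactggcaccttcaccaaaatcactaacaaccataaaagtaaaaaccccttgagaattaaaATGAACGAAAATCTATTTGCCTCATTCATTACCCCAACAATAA

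The capitals open with the start codon of mt-Atp6 and close with the stop codon of mt-Atp8, in another reading frame. mt-Atp8 stood at 3215, 3148 and 3206 FPKM in MHCII-lo and at 6809, 6858 and 6808 in MHCII-hi. It was 2.14-fold higher, with a log2 change of 1.10 ± 0.01 (SE, limma adjusted p = 7.10e-09), and 0.29 with quantile normalization. mt-Atp6 (chrM:7927-8607) stood at 2967, 2933 and 2961 FPKM against 4839, 4862.5 and 4773, a log2 change of 0.71 ± 0.01 (SE, limma adjusted p = 2.52e-08), and 0.21 with quantile normalization.

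Although both frames lie on a shared mRNA, their values did not keep step. The ratio of mt-Atp8 to mt-Atp6 was 1.08, 1.07 and 1.08 in MHCII-lo and 1.41, 1.41 and 1.43 in MHCII-hi (two-sided exact permutation test p = 0.1). The frames of mt-Nd4l and mt-Nd4, by contrast, were 0.0136 apart in their ratio. mt-Atp8 has 204 bases, the fewest of the 13 mRNAs, and how the authors' tools divided reads over the shared bases is not stated in the sources. The 43 bases that mt-Atp8 shares with mt-Atp6 lie in Gm10925, the chromosome 1 copy of mt-Atp6. In gene order the rest of mt-Atp8 falls between that copy and the copy of mt-Co2. GENCODE M21 annotates no transcript in that gap, and its sequence was not analysed here.

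**Figure D3:**
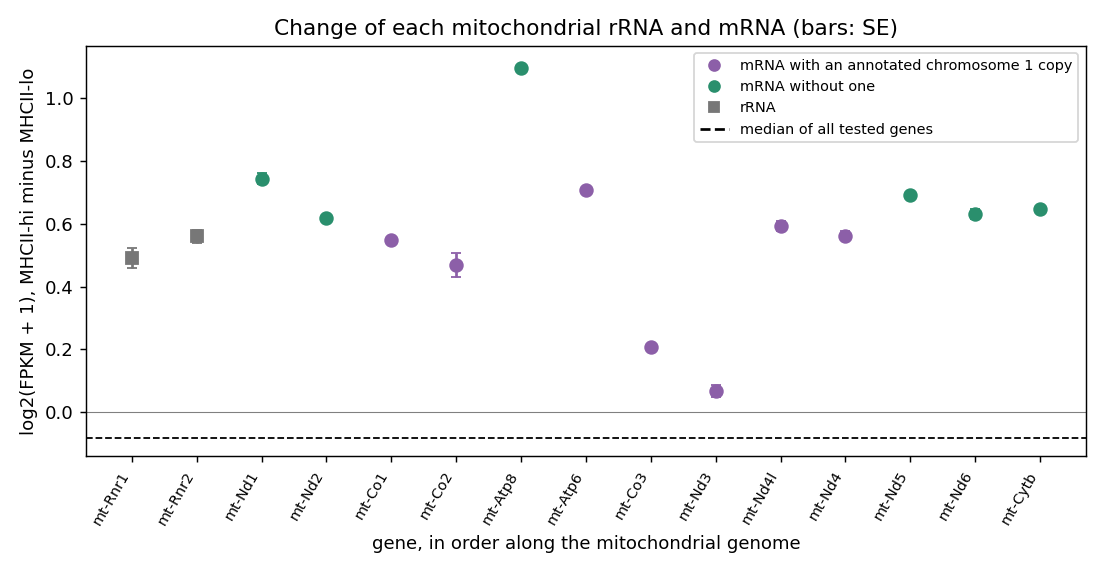
Difference in log2(FPKM + 1), MHCII-hi minus MHCII-lo, with its SE, for each rRNA (squares) and mRNA (circles) in genome order, coloured by whether an annotated chromosome 1 copy exists. mt-Atp8 is at 1.10, mt-Co3 at 0.21 and mt-Nd3 at 0.07, while the other 12 points lie between 0.47 and 0.74 and the dashed median of all tested genes at -0.08; mt-Nd3 fell after rescaling to an equal total and mt-Co3 with quantile normalization.

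The changes of mRNAs with and without an annotated copy on that stretch of chromosome 1 overlapped, though their medians differed. The 6 mRNAs without one there (mt-Nd1, mt-Nd2, mt-Atp8, mt-Nd5, mt-Nd6 and mt-Cytb) had log2 changes of 0.62 to 1.10, with a median of 0.67. The highest of these was mt-Atp8, whose last 43 bases also begin mt-Atp6 and so lie in Gm10925, the copy of mt-Atp6. Next was mt-Nd1, at 0.74. The 7 with a copy there had 0.07 to 0.71, with a median of 0.55. The lowest of the 7 were mt-Nd3 and mt-Co3. The highest was mt-Atp6, which stood above mt-Nd2, mt-Nd5, mt-Nd6 and mt-Cytb. Some of the 6 have diverged pseudogenes elsewhere, such as Gm13339, which shares 28.3% of its 31-base words with mt-Nd2, and Gm4076, which shares 24.6% with mt-Nd5. The part of the copies in the result was not tested.

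Shares among the 13 mRNAs do not depend on how a library is scaled. That of mt-Atp8 was 12.36% ± 0.106 (SD) of their summed FPKM in MHCII-lo against 17.03% ± 0.0886 in MHCII-hi. The share of mt-Atp6 was 11.45% against 12.04%, that of mt-Nd1 6.20% against 6.69%, and that of mt-Nd5 2.96% against 3.08%. Shares that were lower in MHCII-hi were led by mt-Co3, at 9.64% ± 0.0761 against 7.17% ± 0.0644, and mt-Co1, at 25.5% against 23.95%. mt-Nd3 held 1.35% ± 0.0158 against 0.910% ± 0.0174. Also lower were the shares of mt-Co2, at 10.80% against 9.62%, mt-Nd4, at 3.96% against 3.76%, and mt-Nd4l, at 2.47% against 2.40%. These 6 mRNAs all have an annotated chromosome 1 copy, as does mt-Atp6, whose share was higher. In each share named so far the groups did not overlap. Each had a two-sided exact permutation p of 0.1, and 0.13 after Benjamini-Hochberg adjustment over the 13 shares. The shares of mt-Cytb, mt-Nd2 and mt-Nd6 overlapped between the groups.

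The annotated ends of the reading frames differ. In the annotation 10 of the 13 mRNAs end in a full stop codon, while mt-Co3, mt-Nd4 and mt-Cytb end in a lone T that the tail completes to TAA. The annotated ends of mt-Nd1 (chrM:3707) and mt-Nd2 (chrM:4951) overlap the starts of mt-Ti (chrM:3706) and mt-Tw (chrM:4950) on the same strand. The annotation therefore does not settle whether these stop codons stay whole once the tRNAs are excised. The last bases of mt-Co3, mt-Nd4 and mt-Cytb are shown with those of mt-Atp6, with the stop bases in capitals. mt-Atp6 is annotated with a full stop codon, but its last base (chrM:8607) is also the first of mt-Co3. Whether that codon stays whole in the mRNA is likewise not settled.
mt-Co3, chrM:9376-9390: attgatgaggatctT
mt-Nd4, chrM:11530-11544: caggcctgacaataT
mt-Cytb, chrM:15274-15288: taaaattatatccaT
mt-Atp6, chrM:8593-8607: catgataatacaTAA

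The 3 mRNAs annotated to end in a lone T changed to different extents, 1.16-fold, 1.48-fold and 1.57-fold.

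The rRNAs of the mitochondrial ribosome were listed below every mitochondrial mRNA in these poly(A)-selected libraries, nearest to mt-Nd3. mt-Rnr1 (chrM:70-1024), of the small subunit, stood at 170.3, 165 and 174 FPKM in MHCII-lo and at 239, 248 and 230.2 in MHCII-hi. mt-Rnr2 (chrM:1094-2675), of the large subunit, stood at 168, 174 and 172 FPKM against 258, 250.1 and 251. Both rose without overlap, 1.41-fold and 1.48-fold (limma log2 changes 0.49 ± 0.03 and 0.56 ± 0.02 SE, adjusted p = 1.70e-05 and 1.31e-06). Summed, the rRNAs had 0.0132 times the FPKM of the mRNAs in MHCII-lo and 0.0123 times in MHCII-hi. Of 5 tested RNAs of nuclear genes that also lack a long tail, Rn7s1, Rn7s2 and Hist1h2ap fell (60%, against 40.5% of all tested genes). Rn7sk and Rny1 did not pass. All 5 were low, with group means of 0.877 to 3.66 FPKM. The calls of Rn7s1 and Rn7s2 were lost without MHCII-lo replicate 1 or 3 and that of Rn7s1 without MHCII-hi replicate 2 (limma adjusted p from 0.0547 to 0.0589), and Rny1 rose without MHCII-hi replicate 1 (0.0221). The part of tail length in the result was not tested.

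The tRNAs did not move as a class. They are 59 to 75 bases long, and a transcript this short is poorly captured. The FPKM of a tRNA may rest on few fragments, whose number is unknown because the read depth is. Of the 22, 21 reached the expression minimum of a mean of 1 FPKM, all but mt-Ts2. Of these 6 rose (mt-Tl1, mt-Tg, mt-Tr, mt-Tk, mt-Tm and mt-Tp), 2 fell (mt-Tc and mt-Ts1) and 13 did not pass, with a median log2 change of 0.15. The 28.6% called higher is near the 27.2% of all tested genes, and the 9.52% called lower stands beside 40.5%. The call of mt-Tp was lost after rescaling to an equal total, and that of mt-Tr without MHCII-lo replicate 3 (adjusted p = 0.0515). Of the called tRNAs, mt-Ts1, mt-Tk, mt-Tg and mt-Tr lie between mitochondrial genes that have a chromosome 1 copy. The sequence of the gaps between those copies was not analysed here, so the levels and changes of these tRNAs may be uncertain too.

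Levels of the tRNAs followed the strand. The 8 tRNA genes on the minus strand had means of 22.6 to 459 FPKM in either group, apart from mt-Tq at 2.32 and 1.48 FPKM. The 14 on the plus strand had means of 0.803 to 13.1 FPKM, apart from mt-Tl1. In sum the minus-strand tRNAs had 5.22, 5.26 and 5.10 times the FPKM of the plus-strand tRNAs in MHCII-lo, and 2.34, 2.34 and 2.45 times in MHCII-hi (two-sided exact permutation test p = 0.1). This ratio includes mt-Tl1, which as means held 124 of the 170 FPKM of the plus-strand sum in MHCII-lo and 283 of 346 in MHCII-hi. It therefore rests largely on 1 gene. Minus-strand tRNA genes lie antisense to the precursor that carries most mRNAs, and the sources do not say whether counting kept the strands apart.

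Of the tRNAs called, mt-Tl1 and mt-Ts1 were the most abundant. mt-Tl1 encodes the leucine tRNA between mt-Rnr2 and mt-Nd1, and mt-Ts1 the serine tRNA that ends against mt-Co1. They are shown with mt-Tc, the cysteine tRNA, in the direction of the gene, and the capitals in mt-Ts1 mark the 3 bases antisense to the end of mt-Co1.
mt-Tl1, chrM:2676-2750 (plus strand): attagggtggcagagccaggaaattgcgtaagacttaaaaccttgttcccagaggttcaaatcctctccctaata
mt-Ts1, chrM:6870-6938 (minus strand): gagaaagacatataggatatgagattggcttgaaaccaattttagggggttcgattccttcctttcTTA
mt-Tc, chrM:5192-5257 (minus strand): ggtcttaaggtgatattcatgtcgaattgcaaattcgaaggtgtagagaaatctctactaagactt

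mt-Tl1 stood at 124, 120.2 and 127 FPKM in MHCII-lo and at 286, 280.5 and 282 in MHCII-hi. It was 2.29-fold higher (limma log2 change 1.19 ± 0.02 SE, adjusted p = 8.19e-08), more than either neighbour: mt-Rnr2 was 1.48-fold and mt-Nd1 1.67-fold higher. The ratio of mt-Tl1 to mt-Nd1 was 0.0773 ± 0.000624 in MHCII-lo against 0.106 ± 0.000246 in MHCII-hi, without overlap (two-sided exact permutation test p = 0.1), and that to mt-Rnr2 was 0.722 ± 0.0271 against 1.12 ± 0.00849 (exact p = 0.1). mt-Ts1 went the other way, from 453, 459.8 and 465 FPKM to 407, 407 and 402, a log2 change of -0.18 ± 0.01 (SE, limma adjusted p = 4.26e-05), while its neighbour mt-Co1 was 1.46-fold higher.

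mt-Tc had 47.0, 48.8 and 49.7 FPKM in MHCII-lo against 30.9, 33.8 and 33.3 in MHCII-hi (limma log2 change -0.56 ± 0.04 SE, adjusted p = 2.55e-05). It lies in a cluster of minus-strand tRNA genes with mt-Ta, mt-Tn and mt-Ty, which did not pass. mt-Tn, for example, had 78.3, 73.8 and 78.3 FPKM against 62.3, 66.4 and 77.8, with overlap. Both mt-Tn and mt-Ta passed as lower with all 6 libraries rescaled to an equal total (limma adjusted p = 0.0149 and 0.0244) and, as deposited, without MHCII-hi replicate 3 (0.00281 and 0.0153). The other called tRNAs were low. mt-Tg rose from 2.82, 2.02 and 2.99 to 4.84, 7.20 and 7.5 FPKM, mt-Tr from a mean of 2.62 to 5.03, mt-Tm from 5.25 to 7.44 and mt-Tk from 8.35 to 13.1 FPKM.

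**Figure D4:**
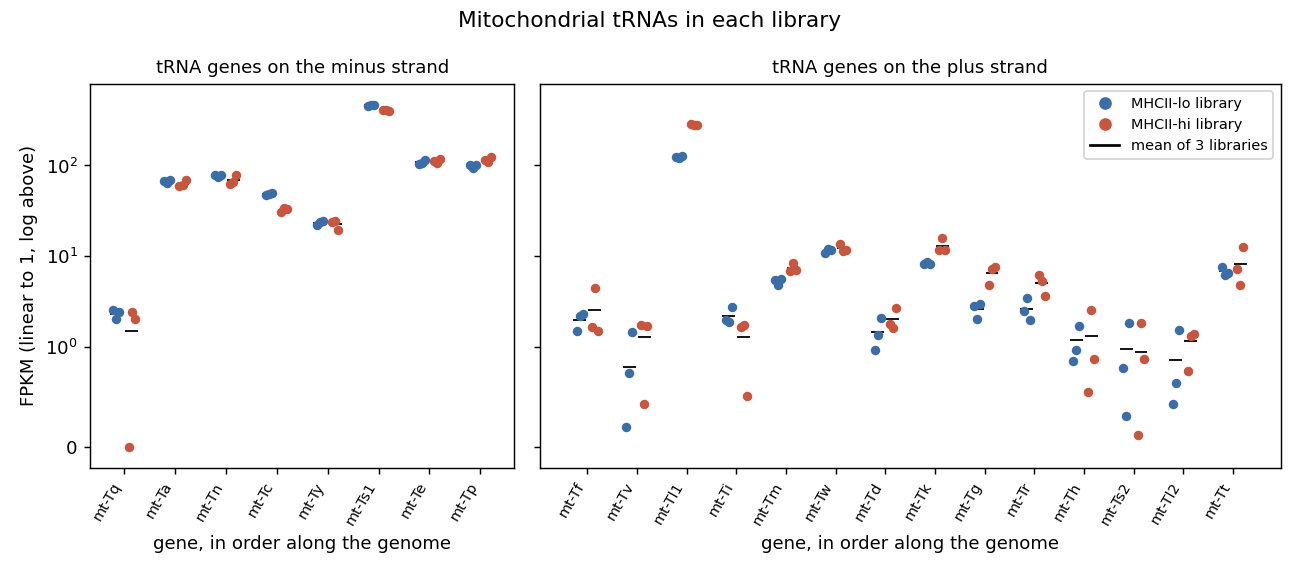
FPKM (linear to 1, log above) of the 22 tRNAs in each library, with minus-strand genes at left and plus-strand genes at right, each in genome order, and a line at the mean of 3. mt-Tl1 stands apart from the other plus-strand genes at 124 against 283 FPKM as means, and mt-Ts1 is the highest of all at 459 against 405 FPKM.

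Complexes I, III, IV and V are assembled from subunits of both genomes, and complex II from nuclear subunits only. The nuclear subunits moved the other way from the mitochondrial mRNAs. Of 79 tested nuclear subunit genes, 78 fell and 0 rose, with a median log2 change of -0.68; Ndufv3 of complex I, at 9.98 ± 0.191 against 10.4 ± 0.726 FPKM, did not pass. At an unadjusted limma p under 0.05 the count of higher genes was also 0, and it was 1 when libraries were rescaled over the rows that are neither immunoglobulin, mitochondrial nor copies. Over all tested genes 40.5% were called lower. In complex I, 35 of 36 fell, led by Ndufb6, at 33.6, 35.8 and 32.7 FPKM in MHCII-lo and 11.6, 12.8 and 13.4 in MHCII-hi, with Ndufb3 and Ndufa1 next. In complex III all 9 fell, led by Uqcrfs1, the iron-sulfur protein, from 66.2 to 33.9 FPKM, Uqcr11 and Uqcr10. In complex IV all 12 fell, led by Cox7a2, Cox5a (47.1 to 20.7 FPKM) and Cox6c. In complex V all 18 fell, led by Atp5e, Atp5g3 (79.3 to 30.9 FPKM) and Atp5k. In complex II, which has no mitochondrial gene, Sdha, Sdhb, Sdhc and Sdhd all fell, with a median log2 change of -0.66.

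The ratio of the summed FPKM of mitochondrial to nuclear subunits rose in each library of MHCII-hi beyond any of MHCII-lo. In complex I it was 6.01, 5.84 and 5.91 in MHCII-lo and 15.999, 15.9 and 15.8 in MHCII-hi. For complex V it went from 5.12, 5.01 and 5.09 to 15.2, 15.3 and 15.2. The ratio of complex III was 4.05, 3.95 and 3.98 against 10.5, 10.5 and 10.2. In complex IV it was 11.9, 12.0 and 12.4 against 25.5, 24.5 and 24.7. The log2 ratio differed by 1.43 in complex I, 1.38 in III, 1.04 in IV and 1.58 in V, each with a two-sided exact permutation p of 0.1, and 0.1 after adjustment over the 4 complexes. A ratio within a library is free of its scaling, but it moves both with the mitochondrial rise and with the nuclear fall.

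**Figure D5:**
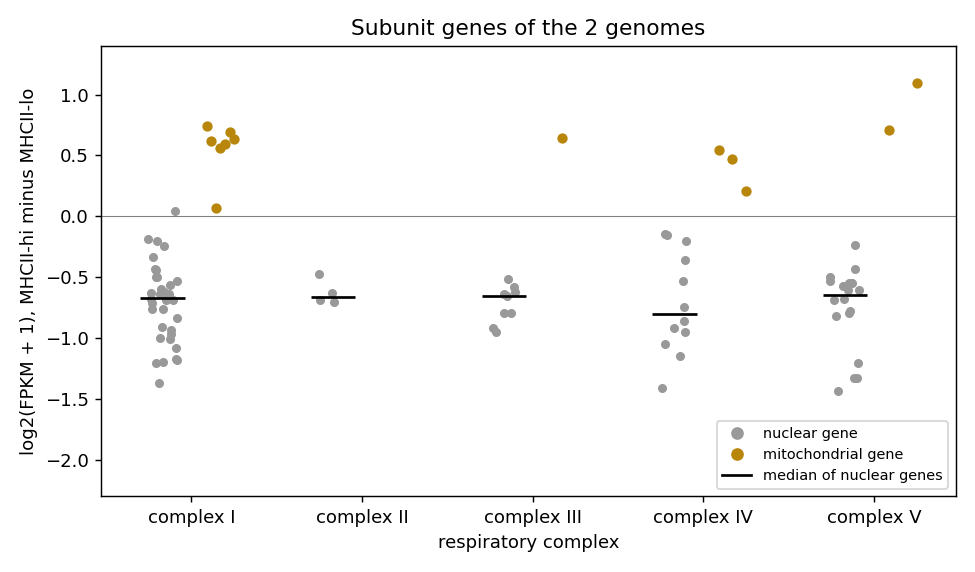
Difference in log2(FPKM + 1), MHCII-hi minus MHCII-lo, for each nuclear (grey) and mitochondrial (gold) subunit gene by respiratory complex, with a line at the median of the nuclear genes. The 13 mitochondrial genes lie between 0.07 and 1.10 and 78 of the 79 nuclear genes lie below 0, with Ndufv3 at 0.05; mt-Nd3 fell after rescaling to an equal total and mt-Co3 with quantile normalization.

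The nuclear genes that copy, read, process and translate mitochondrial nucleic acids are given by list, and the share called lower ranged from 37.5% in transcription and 40% in DNA maintenance to 62.5% in RNA processing and 73.3% in translation. Of 8 tested genes of mitochondrial transcription 3 fell (37.5%, against 40.5% of all tested genes) and 0 rose. Tfam, which packages the DNA and activates its promoters, stood at 10.6, 10.2 and 10.4 FPKM in MHCII-lo and at 6.26, 5.91 and 5.88 in MHCII-hi, without overlap (limma log2 change -0.70 ± 0.04 SE, adjusted p = 6.67e-06). Mrpl12, a ribosomal protein that also binds the polymerase, and the elongation factor Tefm fell too. The RNA polymerase Polrmt had 4.65, 4.30 and 4.08 FPKM against 4.31, 4.87 and 4.59, and its partner Tfb2m 7.69 ± 0.224 against 7.07 ± 0.477; neither passed (limma adjusted p = 0.365 and 0.104). Tfb2m passed as lower without MHCII-hi replicate 3 (0.0186) and with all libraries rescaled to an equal total (0.00817).

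Of 14 genes for the stability, polyadenylation and decay of mitochondrial RNA, 8 fell (57.1%, against 40.5% of all tested genes) and 1 rose (7.14%, against 27.2%). Slirp and Lrpprc encode a complex that protects the mRNAs. Slirp had 5.53, 5.70 and 5.63 FPKM in MHCII-lo and 2.32, 1.93 and 1.47 in MHCII-hi (limma log2 change -1.20 ± 0.10 SE, adjusted p = 6.98e-05). Lrpprc had 8.84, 9.43 and 8.64 FPKM against 5.40, 5.69 and 5.61 (limma log2 change -0.60 ± 0.04 SE, adjusted p = 2.67e-05). The nuclease Pnpt1, at 19.4 against 15.8 FPKM, and its helicase Supv3l1, at 8.31 against 7.61, also fell. The call of Supv3l1 was lost without MHCII-lo replicate 1 or 3 and without MHCII-hi replicate 1 (limma adjusted p = 0.0868, 0.0808 and 0.0806), and also with median-of-ratios scaling (0.0912), with quantile normalization (0.0528), and when rescaled over the other rows with or without the copies (0.294 and 0.690). Fastk, whose product is needed for mt-Nd6 mRNA, rose from 5.39 ± 0.183 to 7.39 ± 0.537 FPKM (limma adjusted p = 0.000735). Mtpap, which adds the poly(A) tails, stood at 6.94 ± 0.139 against 6.46 ± 0.296 FPKM, short of the threshold (limma adjusted p = 0.1001). Rescaled to an equal total it passed as lower (0.00536).

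Of 32 tested genes that process and modify mitochondrial RNA 20 fell and 0 rose, led by Rcc1l, the rRNA methyltransferase Mrm2 and Hsd17b10, a subunit of mitochondrial RNase P that went from 30.5 ± 2.18 to 20.2 ± 0.800 FPKM. Of 15 translation factors 11 fell, led by Tsfm, Mtrf1 and Tufm, and only Oxa1l, which inserts the products into the membrane, rose, at 11.0 ± 0.354 against 11.98 ± 0.357 FPKM (limma adjusted p = 0.0368). The call of Oxa1l was lost under 7 of 18 alternative settings, among them without MHCII-lo replicate 1 or 3 and without MHCII-hi replicate 1 or 3, with adjusted p from 0.00261 to 0.942. Counted once each, 42 of the 69 tested genes of these 4 lists (60.9%) fell and 2 rose, with a median log2 change of -0.23, against 40.5% lower and 27.2% higher over all tested genes.

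Of 20 tested genes that copy and maintain mitochondrial DNA, 8 fell (40%, against 40.5% of all tested genes), among them Tfam and the nuclease Exog, and only Rrm2b, a ribonucleotide reductase subunit, rose, from 1.67 ± 0.0917 to 2.88 ± 0.0289 FPKM. Among 11 tested regulators of mitochondrial biogenesis Nrf1, Yy1, Sirt1 and Sirt3 fell (4, or 36.4%, also near that share) and only Myc rose, from 24.9 ± 0.947 to 35.8 ± 1.25 FPKM. The calls of Yy1 and Sirt1 were lost when libraries were rescaled over the rows that are neither immunoglobulin nor mitochondrial (limma adjusted p = 0.0568 and 0.0662), and again with the copies also left out (0.211 and 0.218). Ppargc1a, a coactivator known to drive biogenesis, was at or near 0, with 0 to 0.01 FPKM in MHCII-lo and 0.04 to 0.14 in MHCII-hi.

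Markers of other cell types also differed between the groups, in both directions. The counts stand beside 27.2% called higher and 40.5% called lower over all tested genes. All 18 tested B cell markers rose, and the list summed to 397 to 453 FPKM in MHCII-lo and 7824 to 7962 in MHCII-hi. Of 12 plasma cell markers 11 rose, with sums of 109 to 118 and 1543 to 1556 FPKM. Neutrophil and monocyte markers summed to 18117 to 18179 and 23816 to 24129 FPKM, with 9 of 18 higher and 8 lower (44.4%, near the 40.5% of all tested genes). Erythroid markers fell in 13 of 14 cases, with sums of 1102 to 1126 and 766 to 791 FPKM. Macrophage and dendritic cell markers summed to 122 to 127 and 198 to 201 FPKM, with 10 of 12 higher and 1 lower. T and NK cell markers summed to 204 to 209 and 204 to 216 FPKM, with 7 of 12 higher and 3 lower. Of 6 tested megakaryocyte markers 3 rose, with sums of 23.6 to 25.3 and 32.0 to 34.8 FPKM, and of 7 tested HSC markers 5 rose. No marker of these lists was at 0 in all 6 libraries. Among 4 tested RNAs listed as nuclear-retained, Malat1 rose from 29.4 ± 0.449 to 56.5 ± 0.388 FPKM and Neat1 from 5.57 to 6.24 FPKM. Gas5 and Mir17hg of that list fell. Where these RNAs lie in the cell was not checked, so the list gives no measure of nuclear RNA. The call of Neat1 was lost without MHCII-lo replicate 3 and without MHCII-hi replicate 2 or 3 (limma adjusted p = 0.0719, 0.0537 and 0.0560), and after rescaling to an equal total (0.457). The part of cell types and RNA quality in the mitochondrial result was not tested.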

How the data were processed

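The libraries were stranded and poly(A)-selected, per the labels' protocols. Per the submitters' processing notes, the authors used fastp, HISAT2 and StringTie on GRCm38 (mm10); versions and settings were not found in these sources. The authors deposited values taken here as FPKM, normalized by them to transcript length and library size, 1 per gene in 30803 rows; the file headers do not name the unit. The depth being unknown, counting intervals were not computed. For 67 repeated symbols, none mitochondrial, the symbol stayed with the highest row.

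A gene was tested if its mean over the libraries reached 1 FPKM (12295 genes). The test was limma 3.58.1 in R 4.3.3 on log2(FPKM + 1), with empirical Bayes moderation that follows the trend of variance with level. It was two-sided, with a call at a Benjamini-Hochberg adjusted p under 0.05. The log2 scale understates the change of low genes. Folds are ratios of mean FPKM, and ± is an SD (n = 3) where SE is not written. The fit was tested on simulated data. Shares and ratios per library were compared with exact permutation tests. Coordinates and sequences came from GENCODE M21, which matched 100% of the 37 mitochondrial symbols. Copies were found by shared words of 31 bases and aligned without gaps; the candidate Gm10288 shared none. Named were all mitochondrial rows, the copies, 9 set genes, and up to 3 called members with the largest changes from each nuclear list, plus genes that complete counts of 5 or fewer. Gm13339, Gm13340, Gm13341 and Gm4076 were chosen after their values were seen. Members and lists were chosen with earlier results of these data known. Python 3.11.15, pandas 2.3.3, numpy 2.4.6, scipy 1.17.1 and matplotlib 3.10.9 were used for tables, exact tests and figures.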

Additional observations from a re-analysis of the deposited data

How the results depend on the processing

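Settings varied were the pseudocount (0.1 and 0.01), the expression minimum (none, or 5 FPKM), the scaling (4 others and quantile normalization), the variance model, array weights, a replicate block and the omission of each library; those that treat the chromosome 1 copies apart were chosen after seeing the data. Apart from mt-Nd3, mt-Co3 and mt-Co1, each mRNA and rRNA was called higher under all 18. Called mRNAs numbered 11 with quantile normalization, where mt-Co3 fell by 0.18 (1 lower) and mt-Co1 was at 0, and 12 after rescaling to an equal total, where mt-Nd3 fell by 0.0531 (1 lower), with no filter, with no trend, and without replicate 2 of either group. For these the cause was not tested, beyond quantile normalization fixing the highest values.

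A minimum of 5 FPKM, which tests fewer genes, left 2210 genes called higher and 23 of the RNA metabolism genes lower. The RNA metabolism genes called higher numbered 1 with no filter or an equal total, and 1 to 2 with a library left out. Nuclear subunits called higher numbered 1 after rescaling over the other rows without copies. The difference in the mitochondrial share of a library was 3.62 to 3.69 percentage points with a library left out, 4.74 without immunoglobulin segments in the total, 3.96 without the copies and 4.83 with the copies added.

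Among tRNAs that did not pass, signs turned. mt-Th changed by -0.00467 with array weights, -0.0698 and -0.0493 with pseudocounts of 0.01 and 0.1, -0.11 with quantile normalization and -0.11 with an equal total, where mt-Te was at -0.0704 and mt-Tw at -0.0335. Rescaled over the other rows, mt-Ty was at 0.0126, and with copies also left out mt-Ty was at 0.0449 and mt-Ta at 0.0280. With a library left out mt-Tf ranged from -0.20 to 0.35, mt-Th from -0.0861 to 0.26, mt-Tt from -0.16 to 0.45 and mt-Ty from -0.12 to 0.0359. Among nuclear genes and copies, with an equal total Oxa1l changed by -0.00351, Polrmt by -0.0388, Ndufv3 by -0.0676 and Gm28438 by -0.0541; with quantile normalization Gm28437 changed by -0.24, Gm29216 by -0.0898 and Gm13341 by 0.0350; rescaled without the copies Mtpap changed by 0.00377. Gm13341 was at 0.0177, 0.0585 and 0.0907, and Rn7sk at 0.0229, 0.0679 and 0.0983, under median-of-ratios scaling, over other rows, and without copies; Rn7sk was at 0.000569 and 0.000115 with pseudocounts of 0.01 and 0.1. Without the copies in the scaling mt-Te and Ndufv3 passed as higher (limma adjusted p = 0.0278 and 0.0429) and Hist1h2ap lost its call (0.0608). With a library left out Gm13341 ranged from -0.0371 to 0.00454 and Rn7sk from -0.0906 to 0.12. Of the shares among the mRNAs, mt-Cytb differed by -0.124 percentage points without mt-Co1; weighted by length, mt-Nd2 differed by 0.0894, mt-Nd4l by 0.00583 and mt-Nd6 by 0.0471. With a library left out mt-Nd6 differed by -0.0211 to 0.0265. In each case the cause was not tested.

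Replicate numbers of the groups did not pair the libraries: same-numbered deviations correlated at 0.0626, 0.00190 and 0.0804. With a replicate block 12 mRNAs were called higher (mt-Nd3 adjusted p = 0.0506 in limma), 3222 genes were higher and 4809 lower, 40 RNA metabolism genes were lower and 1 higher, and 77 nuclear subunits were lower. Among genes named in the text, mt-Td and Rny1 gained a call as higher (limma adjusted p = 0.0385 and 0.0491), and Neat1 (0.0507), Supv3l1 (0.0750) and Oxa1l (0.0831) lost theirs. The share of the library differed by 3.65 points in paired form (two-sided exact sign-flip p = 0.25, the smallest that 3 pairs allow). No depth was given, so how far counting limits the low tRNAs is unknown.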
